A study of Homo sapiens with 12 samples.

Results

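The genes described here are those whose name starts with ZNF and that lie on chromosome 19, taken by name and chromosome from 6 lists of N6-methyladenosine (m6A) peaks and from the authors' table comparing 2 cell lines. There were 198 such genes among 8843 genes in all; 190 of them carried at least 1 listed peak and 126 had at least 1 region in the comparison. The 8 compared genes without a listed peak were ZNF66, ZNF382, ZNF414, ZNF439, ZNF585B, ZNF730, ZNF772 and ZNF788.

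The assay was MeRIP-seq: an anti-m6A antibody enriches methylated fragments (the IP library), and the same RNA without enrichment is sequenced as input. Trastuzumab-resistant cells of BT474 background, labelled BT474.TtzmR, were set against sensitive BT474, a widely used ERBB2-amplified breast cancer cell line of human origin. Each line had 3 IP and 3 input libraries, 12 in all. All cells were grown in the same serum-containing medium; the labels do not say how resistance arose, whether the resistant line is 1 clone, whether trastuzumab was present in culture, or whether replicates were separate cultures.

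Most zinc finger genes of chromosome 19 arose by tandem duplication and encode DNA-binding proteins with long arrays of zinc fingers. Many begin with a KRAB domain, which recruits the corepressor TRIM28 and through it the histone methyltransferase SETDB1 and HP1 proteins, and many of the proteins silence transposable elements. The finger array is usually encoded, together with the 3′ UTR, by 1 long last exon. m6A on messenger RNA is known to lie mostly in long exons and near stop codons, and its readers can speed decay of the RNA.

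Many zinc finger genes of chromosome 19 carried m6A peaks in both lines. RefSeq (GRCh38.p14) lists 250 protein-coding genes of this name on the chromosome, and 189 of them (75.6%) carried a peak in at least 1 library. That share counts a peak in either line, and the same share of all protein-coding genes was not worked out. A peak in all 6 libraries was listed for 106 of the 190 members (55.8%), beside 55.9% of all 8353 genes with a peak. A further 14 members had a peak in exactly 1 library (7.37%, beside 11.3% of all genes). Joined over the libraries, the members' peaks formed 526 regions, of which 110 were found in all 6 libraries and 193 in 1 library. The median member had 2.5 regions, 44 had 1, and ZNF780B and ZNF793 had 8 each, the most of any member. ZNF468 and ZNF813 had 7 and ZNF136 had 6. Only 2 regions were shared by 2 members. Many members are close relatives in sequence, and how the authors' alignment placed reads that fit several of them is not given in the sources used here, so a value printed for 1 gene may include reads of a relative.

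The members lay in a few dense stretches of the chromosome. Split wherever neighbours were more than 0.5 Mb apart, they formed 22 groups, and 10 groups with at least 6 members held 179 of the 198 genes. The largest group had 40 members (chromosome 19, 57722735 to 58992597, in the coordinates of the files, whose build is not named), with a peak in all 6 libraries for 20 of them. The next had 33 members (52090005 to 54083493), 21 of them with a peak in all 6. Of the groups with 23 members, the one at 11594330 to 12742735 had 12 such genes and the one at 36673706 to 38231029 had 7. These shares describe the groups and were not tested. RNA amounts were not analysed here. All positions below are on chromosome 19.

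Resistant and sensitive cells carried m6A on overlapping numbers of these genes. The resistant libraries listed 155, 153 and 153 members with a peak, and the sensitive libraries 158, 141 and 150. The means were 154 ± 1.15 in resistant and 150 ± 8.50 in sensitive cells (SD, n = 3 each), and the ranges overlapped (exact permutation test, two-sided, p = 0.7). Without sensitive library 2 the difference of 4 genes turned to -0.33. As a share of all genes with a peak, members made up 2.27%, 2.35% and 2.27% in resistant libraries and 2.47%, 2.24% and 2.51% in sensitive libraries, a difference of -0.11 percentage points (exact permutation test, p = 0.4). The smallest p that 3 against 3 libraries allow is 0.1.

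**Figure D1:**
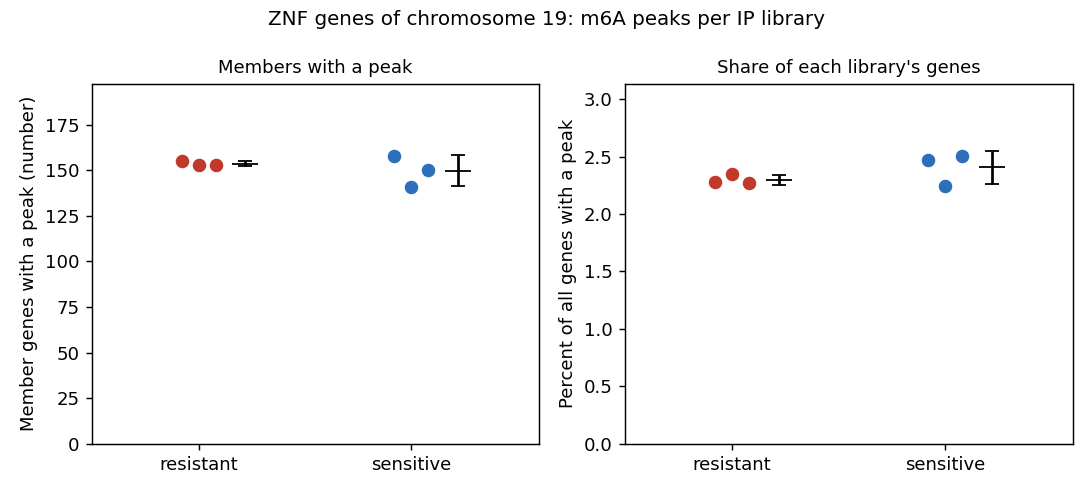
Number of chromosome 19 ZNF genes with an m6A peak (left) and their percent of all genes with a peak (right) in each IP library. Points are libraries, with resistant left of sensitive, and the bars give mean and SD (n = 3); the lines overlap in both panels, at 153 to 155 genes in resistant and 141 to 158 in sensitive libraries.

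The direction of that difference changed with the peaks taken. Among peaks with a p below 1e-05 it was -2 genes (exact permutation test, p = 0.7). With the 26028 peaks of smallest p taken from every library, the resistant libraries kept 117, 121 and 117 members and the sensitive libraries 146, 133 and 150, without overlap (difference -24.7 genes, exact permutation test, p = 0.1, the smallest possible). The shares of genes were then 1.97%, 2.05% and 1.99% in resistant against 2.43%, 2.21% and 2.51% in sensitive libraries (difference -0.38 points, exact permutation test, p = 0.1). Member peaks had weak p-values in all lists: 37.3% to 41.6% of them in resistant and 39.4% to 46.1% in sensitive libraries had a p below 1e-05, while 60.2% to 63.0% of all peaks did. The full lists held 32638, 30767 and 32200 peaks in resistant and 29063, 28122 and 26028 in sensitive libraries. Taking equal numbers thus removed peaks of weaker p mostly from the resistant lists and left sensitive library 3 whole. This cut cannot tell a difference between the lines from a difference in list length. Read depth per library is unknown.

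Resistant cells alone had peaks listed for 11 members (5.79%, beside 11.4% of all genes), and sensitive cells alone for 9 (4.74%, beside 6.63%). Beside 1.78% and 0.838% of all genes, 2 members (1.05%) were listed in every one of the 3 resistant libraries but never in a sensitive one, and 2 (1.05%) had the opposite pattern. The resistant-only genes were ZNF506 and ZNF470. ZNF506 had fold enrichments, the authors' enrichment ratio for a peak, of 2.51, 7.67 and 17.4 in resistant libraries 1 to 3, and ZNF470 had 5.97, 7.67 and 12.8. The sensitive-only genes were ZNF580 and ZNF135. ZNF580, a small gene without a KRAB domain, had 5.66, 4.8 and 6.75 in sensitive libraries 1 to 3, and ZNF135 had 4.25, 12.2 and 6.53. Of the 4, ZNF506 alone was called in the authors' deposited table, with a 3′ UTR region at a fold of 1.66 (19903039 to 19905077; deposited p = 0.00933); ZNF470 was not compared. Values for ZNF580 and ZNF135 in the authors' deposited table lay on regions with no peak in any library for the first and with a peak in 1 sensitive library for the second, at folds of 1.5 (deposited p = 0.155) and 2.48 (deposited p = 0.141), neither called.

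**Figure D2:**
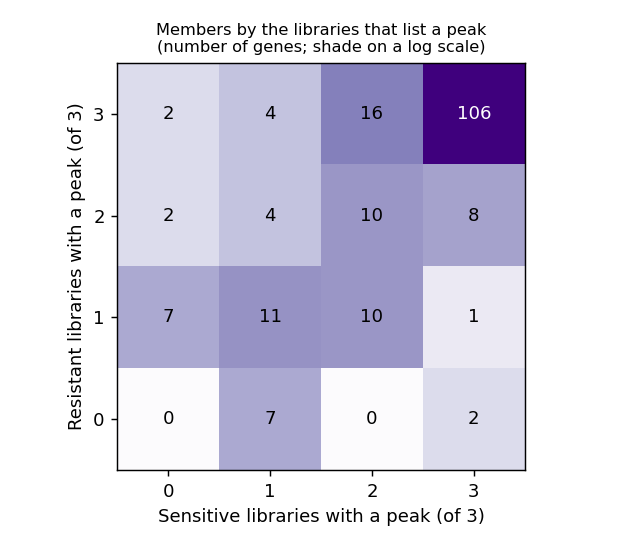
Number of chromosome 19 ZNF genes by how many of the 3 resistant (vertical axis) and 3 sensitive (horizontal axis) libraries list a peak on them. The corner with all 6 libraries holds 106 of 190 genes, and 2 genes stand in each of the corners of a single line.

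Other members had a peak in more libraries of 1 line than of the other. More resistant than sensitive libraries had a peak for 35 members (18.4%, beside 24.5% of all genes), and more sensitive than resistant libraries for 28 members (14.7%, beside 13% of all genes); no test was made of these shares. At the level of regions, 236 member regions were found in 2 or 3 of the resistant libraries, and 24 (10.2%) had no peak in any sensitive library. The same share was 11.5% for other chromosome 19 genes, 12.5% for ZNF genes elsewhere and 11.7% for all remaining genes. Of 238 such regions in sensitive cells, 18 (7.56%) lacked a peak in every resistant library, with 3.56% for other chromosome 19 genes, 6.56% for ZNF genes elsewhere and 5.09% for all remaining genes. These shares were not tested, since regions of a library are not replicates.

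On the transcript, member regions lay mainly in coding sequence and in the 3′ UTR, inside a single exon and seldom across the stop codon. Each library was compared with itself, setting members against other genes of chromosome 19 and against ZNF genes of other chromosomes in an exact paired permutation test over 6 libraries (two-sided, smallest p = 0.03125), with Benjamini-Hochberg adjustment over 16 such tests. Of the 16, 8 were chosen after seeing the data: the shares across the stop codon, at the 5′ UTR and on several exons, and the exonic length. Adjusted over the 8 others alone, the smallest value is 0.0417.

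Regions wholly in coding sequence made up 54.8%, 51.2% and 52.1% of member regions in resistant libraries 1 to 3 and 50.0%, 46.5% and 50.5% in sensitive libraries 1 to 3. The mean over the 6 libraries was 50.9% ± 2.72 for members and 33.9% ± 0.81 for other chromosome 19 genes (SD, n = 6; higher in 6 of 6; exact permutation test, p = 0.03125, adjusted p = 0.0385). Against ZNF genes elsewhere, with 50.6% ± 1.02, the difference was 0.21 points, higher in 4 of 6 libraries (exact permutation test, p = 0.844). The coding share thus separated the members from their neighbours on the chromosome by 11.4 to 21.7 points in each library.

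The share across coding sequence and 3′ UTR, where a region covers the stop codon, was low in members. It was 10.3%, 8.36% and 10.96% in resistant libraries and 11.04%, 8.39% and 11.6% in sensitive libraries. The mean was 10.1% ± 1.39 for members, 17.2% ± 1.16 for other chromosome 19 genes and 16.8% ± 1.49 for ZNF genes elsewhere (SD, n = 6 each). Members were lower in 6 of 6 libraries in both comparisons (exact permutation test, p = 0.03125 each, adjusted p = 0.0385 each). Regions at the 5′ UTR were also fewer, at 2.28% ± 0.61 of member regions, 8.65% ± 0.60 of those of other chromosome 19 genes and 3.61% ± 0.38 of those of ZNF genes elsewhere (SD, n = 6; exact permutation test, p = 0.03125 each, adjusted p = 0.0385 each). Among peaks with a p below 1e-05, the difference from ZNF genes elsewhere at the 5′ UTR turned to 0.44 points (exact permutation test, p = 0.656).

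Regions wholly in the 3′ UTR made up 36.6% ± 3.28 of member regions, against 28.9% ± 0.97 of those of ZNF genes elsewhere (SD, n = 6; higher in 6 of 6; exact permutation test, p = 0.03125, adjusted p = 0.0385). Other chromosome 19 genes stood at 39.95% ± 1.47, and members were lower in 5 of 6 libraries (exact permutation test, p = 0.0625, adjusted p = 0.0667). That difference of -3.34 points turned to 5.38 points when peaks had to reach a fold enrichment of 5 (exact permutation test, p = 0.03125). Between the lines, members had 32.2%, 38.3% and 35.3% of their regions in the 3′ UTR in resistant libraries and 36.2%, 41.96% and 35.7% in sensitive libraries, which overlap (difference -2.70 points, exact permutation test, p = 0.4).

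**Figure D3:**
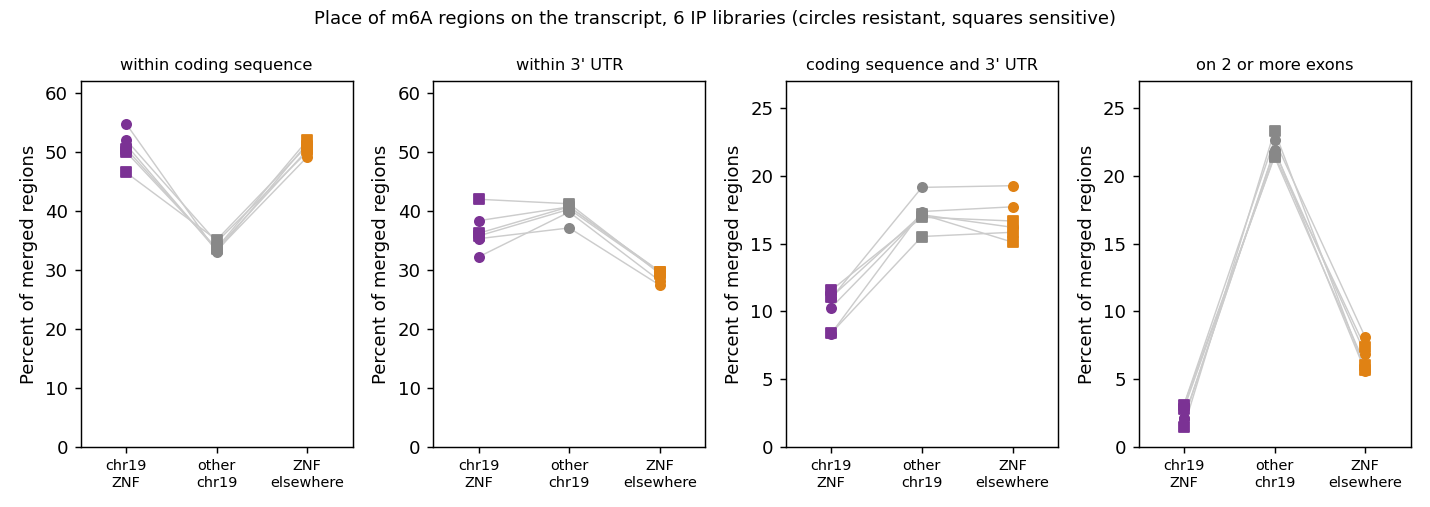
Percent of merged m6A regions (vertical axes) by place on the transcript, for chromosome 19 ZNF genes, other chromosome 19 genes and ZNF genes elsewhere; each point is 1 of 6 IP libraries (circles resistant, squares sensitive) and grey lines join a library. Members stand near ZNF genes elsewhere in coding sequence (50.9% and 50.6%), and below both other sets across coding sequence and 3′ UTR (10.1%, with 17.2% and 16.8%) and on several exons (2.42%, with 22.1% and 6.597%).

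Member regions seldom crossed an exon junction. Regions whose listed peaks all span 2 or more exons made up 2.42% ± 0.66 of member regions, 22.1% ± 0.74 of those of other chromosome 19 genes and 6.597% ± 1.01 of those of ZNF genes elsewhere (SD, n = 6; lower in 6 of 6 in both comparisons; exact permutation test, p = 0.03125 each, adjusted p = 0.0385 each). The regions were short: their median exonic length was 186 ± 11.7 bases, against 224 ± 14.8 in other chromosome 19 genes (SD, n = 6; exact permutation test, p = 0.03125, adjusted p = 0.0385) and 215 ± 12.1 in ZNF genes elsewhere (exact permutation test, p = 0.0625, adjusted p = 0.0667). Among peaks with a p below 1e-05 the length difference from other chromosome 19 genes turned to 30.4 bases (exact permutation test, p = 0.03125).

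Members had 1.94 ± 0.09 regions per gene with a peak, against 1.79 ± 0.07 in other chromosome 19 genes and 2.19 ± 0.13 in ZNF genes elsewhere (SD, n = 6; higher in 6 of 6 and lower in 6 of 6 libraries; exact permutation test, p = 0.03125 each, adjusted p = 0.0385 each). Among peaks with a p below 1e-05 the first difference was -0.05 (exact permutation test, p = 0.281). When peaks had to reach a fold of 5 the second was 0.0067 (exact permutation test, p = 0.844).

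Enrichment of member regions was high within each list. The median fold enrichment of a member region was 5.17, 4.88 and 5.30 in resistant libraries 1 to 3 and 4.68, 5.17 and 5.13 in sensitive libraries 1 to 3. The mean of these medians was 5.06 ± 0.23 for members, 4.15 ± 0.26 for other chromosome 19 genes and 4.51 ± 0.10 for ZNF genes elsewhere (SD, n = 6; members higher in 6 of 6 libraries in both comparisons; exact permutation test, p = 0.03125 each, adjusted p = 0.0385 each). When peaks had to reach a fold of 5, the difference from other chromosome 19 genes turned to -0.54 (exact permutation test, p = 0.03125). High folds repeated the same few values: in resistant library 1, the 58 member regions with a fold of at least 10 shared 26 distinct values, and in sensitive library 1 the 45 such regions shared 22. The reads behind them were not analysed here, and folds below are given as the authors' values, on a scale not set across libraries.

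Among the 106 members with a peak in all 6 libraries, 5 of the 8 with the highest median fold had their best peak within the 3′ UTR in every library. ZNF160, a KRAB zinc finger gene, led with 63.4, 78.1 and 54.5 in resistant libraries 1 to 3 and 120, 149 and 95.9 in sensitive libraries 1 to 3, in every list on a 3′ UTR peak. Its peak ranked 37th, 25th and 73rd among all regions of the resistant lists and 23rd, 17th and 16th among those of the sensitive lists. All 3 resistant values were below all 3 sensitive values. ZNF91, a repressor of SVA retrotransposons in primates, had 27.6, 27.9 and 32.5 in resistant and 126, 91.6 and 68.9 in sensitive libraries, on peaks across coding sequence and 3′ UTR, again without overlap.

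The other 6 of the 8 leading members overlapped between the lines. ZNF844 had 34.5, 39.1 and 32.5 in resistant and 45.3, 34.0 and 48.6 in sensitive libraries, all on the 3′ UTR. ZNF766 had 30.3, 54.4 and 37.1 in resistant and 62.3, 20.7 and 13.5 in sensitive libraries. ZNF714, ZNF430, ZNF791 and ZNF561 had medians over the 6 libraries between 26.5 and 29.6. ZNF430 had 6.43, 37.7 and 27.9 in resistant libraries and 29.7, 42.9 and 16.9 in sensitive libraries. Over all 106 members, the highest fold of the gene was lower in every resistant than in every sensitive library for 7 genes (6.604%, beside 4.6% of all 4670 genes with a peak in all 6 libraries) and higher for 10 (9.43%, beside 13.9%). The ranges overlapped for the other 89, and no test was made of these values.

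The authors' comparison of the lines listed 365 rows of the 126 compared members, which joined to 179 regions; isoforms of a transcript have rows of their own. A region was called when its deposited p was below 0.05 and its fold, resistant over sensitive, was at least 1.5 or at most the inverse of 1.5. Called higher were 16 members (12.7%, beside 14.2% of all genes compared) and called lower 9 members (7.14%, beside 2.76%), 1 of them, ZNF587, in both directions. The other 102 had no called region. Of ZNF genes on other chromosomes, 20 of 132 (15.2%) were called higher and 3 (2.27%) lower, and of other chromosome 19 genes 84 of 359 (23.4%) were called higher and 7 (1.95%) lower. No test was made of these shares.

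Member folds in the authors' deposited table had a median near that of the whole table and a wider spread to the low side. The median log2 fold was 0.29 over member rows and 0.32 over all rows, and 58.9% of member rows stood above a fold of 1, beside 75.04% of all rows. Per merged region, the quartiles of the log2 fold were -0.37 and 0.56 for members and -0.18 and 0.58 for the whole table. After division of every fold by the table's median, a shift of 0.32 on the log2 scale, 5 members were called higher (3.97%, beside 5.26% of all genes) and 12 lower (9.52%, beside 7.35%). After the deposited p was adjusted over all rows by Benjamini-Hochberg, 8 were called higher (6.35%, beside 8.84%) and 4 lower (3.17%, beside 1.31%). With fold limits of 2 and 0.5, 4 were called higher (3.17%, beside 4.09%) and 5 lower (3.97%, beside 0.918%).

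**Figure D4:**
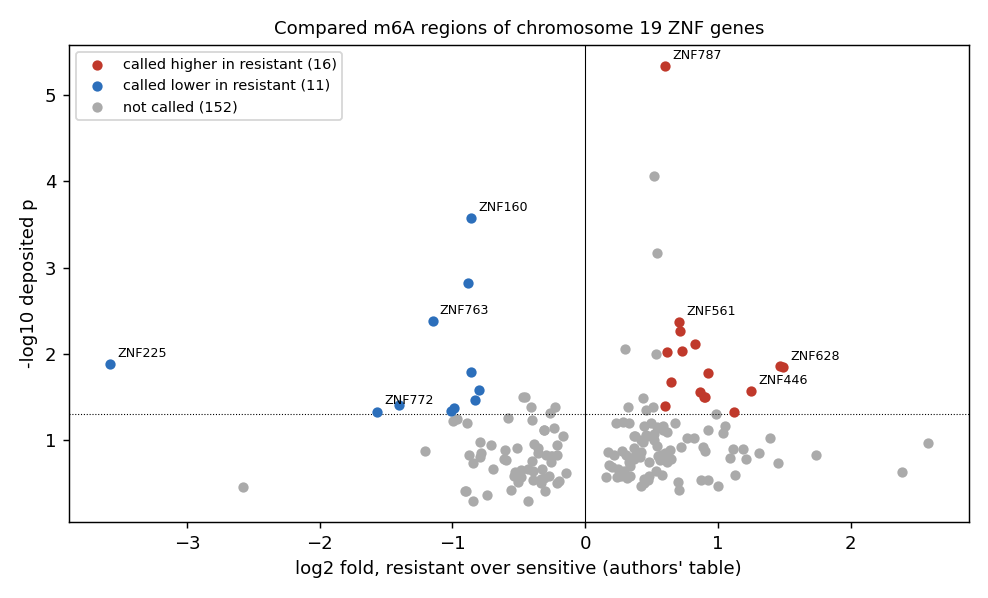
log2 fold, resistant over sensitive (horizontal axis), and -log10 of the deposited p (vertical axis) of the 179 compared regions of chromosome 19 ZNF genes, each shown by its called row with the largest absolute log2 fold, or by its row with the largest where none is called. There are 16 regions called higher and 11 called lower; the dotted line marks a p of 0.05.

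Called higher were 16 of the 179 member regions (8.94%, beside 11.1% of all regions) and called lower 11 (6.15%, beside 2%). Of the 16, 7 lay in coding sequence, 6 in the 3′ UTR, 2 across both and 1 in the 5′ UTR. Peaks overlapped them in more resistant than sensitive libraries for 9 regions and in more sensitive than resistant libraries for 0; 1 had no overlapping peak in any library. Over all 179 compared member regions, 51 had peaks in more resistant and 33 in more sensitive libraries, and 47 had none. The same counts were not worked out for the compared regions of other genes. Among called regions, the largest folds in the authors' deposited table were those of ZNF628 and ZNF221. ZNF628, a zinc finger gene without a KRAB domain, had peaks with folds of 23.4, 19.5 and 22.1 in the 3 resistant libraries, against 7.08 and 8.10 in sensitive libraries 1 and 3 and none in library 2. Its coding region (55993081 to 55993618) stood at 2.81 in the authors' deposited table (deposited p = 0.0141), and the lines did not overlap in their listed folds. The value of 19.5 in resistant library 2 is a repeated one, listed for ZNF257 and ZNF260 as well. Values given below repeat too, among them 22 in resistant library 1 (ZNF257 and ZNF260) and 13.9 in resistant library 3 (ZNF257 and ZNF446). Further ones are 6.89 in resistant library 1 (ZNF446 and ZNF526) and 27.9 in resistant library 2 (ZNF561 and ZNF587). ZNF221 stood at 2.77 in the authors' deposited table for a coding region (44470528 to 44470857; deposited p = 0.0138) that no library's peak list covered.

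ZNF446, which carries a SCAN as well as a KRAB domain, had the 1 region in a 5′ UTR (58986551 to 58986881), with peaks of 6.89 and 13.9 in resistant libraries 1 and 3 and none in sensitive libraries, and a fold of 2.38 in the authors' deposited table (deposited p = 0.0269). ZNF526, also without a KRAB domain, had a coding region with peaks of 6.89, 3.95 and 9.87 in resistant libraries and 4.05 in sensitive library 3 alone, and a fold of 1.78 in the authors' deposited table (deposited p = 0.00776). ZNF296 had a coding region whose only peak, at 8.73, was in resistant library 1, and a fold of 1.90 in the authors' deposited table (deposited p = 0.0166). These 3 regions had peaks in more resistant than sensitive libraries.

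ZNF787 and ZNF561 were called higher on regions with a peak in all 6 libraries. ZNF787 had the smallest deposited p of any member, 4.68e-06, for a region that covers the stop codon (56598821 to 56599888) at 1.52 in the authors' deposited table. Its peaks had folds of 30.3, 15.8 and 32.5 in resistant and 12.3, 17.2 and 16.5 in sensitive libraries, which overlap through resistant library 2. ZNF561 stood at 1.63 in its 3′ UTR in the authors' deposited table (9718397 to 9719054; deposited p = 0.00427), with 20.7, 27.9 and 30.2 in resistant and 32.6, 25.1 and 23.0 in sensitive libraries, which overlap.

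The 3′ UTR regions of ZNF257 and ZNF260 had folds of 1.57 and 1.86 in the authors' deposited table (deposited p = 0.0214 and 0.0316). ZNF257 had peaks of 22, 19.5 and 13.9 in resistant libraries, against 5.19 and 6.30 in sensitive libraries 1 and 3. ZNF260 had 22, 19.5 and 19.7 in resistant libraries, against 5.66 and 25.1 in sensitive libraries 1 and 2. The remaining genes called higher in the authors' deposited table were ZNF420 (1.87), ZNF571 (1.82), ZNF320 (1.64), ZNF480 (1.53) and ZNF574 (1.52), besides ZNF506 and ZNF587. ZNF480 was called in 1 of its 4 rows, ZNF320 in 1 of 5 and ZNF420 and ZNF574 in 1 of 3 rows of the region. For these the call rests on 1 row, and rows of a region differ in isoform and in the stretch covered. The regions of ZNF480 and ZNF320 also had a peak in all 6 libraries. ZNF480 had 5.24, 4.53 and 5.25 in resistant and 5.81, 5.31 and 4.82 in sensitive libraries, which overlap. ZNF320 had 6.2, 7.67 and 6.25 in resistant and 6.19, 4.59 and 5.52 in sensitive libraries, without overlap.

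Of the 11 regions called lower, on 9 genes, 5 lay in the 3′ UTR, 4 in coding sequence, 1 across both and 1 over the 5′ UTR and coding sequence. Peaks overlapped them in more sensitive than resistant libraries for 5 regions, in more resistant than sensitive libraries for 1, and in no library for 2. ZNF160, whose peak values are given above, stood at 0.552 in the authors' deposited table for its 3′ UTR region (53569867 to 53570585; deposited p = 0.000269), and all 4 rows of that region were called. ZNF211, a KRAB zinc finger gene, had peaks of 7.79, 3.38 and 7.77 in the 3 sensitive libraries on its 3′ UTR region and none in any resistant library, with a fold of 0.563 in the authors' deposited table (58153896 to 58154135; deposited p = 0.0347) and all 6 rows called.

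ZNF226 held the region with most rows. In 10 of 16 rows it was called lower, with folds from 0.542 to 0.739 over all 16 in the authors' deposited table (44676309 to 44680107), and its peaks in the libraries overlapped, at 5.51, 2.40 and 3.71 in resistant and 2.95, 5.91 and 2.90 in sensitive cells. A second ZNF226 region, in coding sequence, stood at 0.379 in the authors' deposited table (44680613 to 44680673; deposited p = 0.0389), was called in 2 of 4 rows, and had a peak in sensitive library 2 alone. ZNF225, nearby on the chromosome, had the lowest fold of all members in the authors' deposited table, 0.0836 (44619962 to 44622450; deposited p = 0.0132), on a region that no library's peak list covered. ZNF221, called higher, lies in the same group of 18 members on the chromosome, so calls in both directions stood within 1 stretch.

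ZNF763 had a 3′ UTR region at 0.451 in the authors' deposited table (12090273 to 12090779; deposited p = 0.00417), with a peak of 15.3 in resistant library 2 and of 14.2 and 8.10 in sensitive libraries 1 and 3. ZNF493 and ZNF606 were called in coding sequence at 0.551 and 0.575 in the authors' deposited table, each in 1 of the rows of its region. Peaks on the ZNF493 region were listed in 2 resistant libraries and 1 sensitive library, which goes against the direction of its fold. The ZNF606 region had peaks of 8.27, 3.95 and 6.96 in resistant and 5.66, 6.1 and 6.21 in sensitive libraries, which overlap. ZNF772 stood at 0.337 in coding sequence in the authors' deposited table (deposited p = 0.0468), called in 1 of the 4 rows of its region, with no peak in any library.

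ZNF587, a KRAB zinc finger gene known to silence endogenous retroviruses of the HERV-K family, was called in both directions along its annotated 3′ UTR. A region at 58374386 to 58374505 stood at 2.17 in the authors' deposited table (deposited p = 0.0468), with a peak of 27.9 in resistant library 2 alone. Upstream of it, the region at 58371663 to 58371843 stood at 0.497 in the authors' deposited table (deposited p = 0.0457), with peaks of 5.32 and 9.45 in sensitive libraries 2 and 3. Downstream, the region at 58375553 to 58375792 stood at 0.503 in the authors' deposited table (deposited p = 0.0427), with a peak of 12.8 in resistant library 3 and of 22.7, 10.3 and 11.5 in the sensitive libraries. The 2 uncalled regions of the gene had folds of 1.47 to 2.06 in the authors' deposited table.

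**Figure D5:**
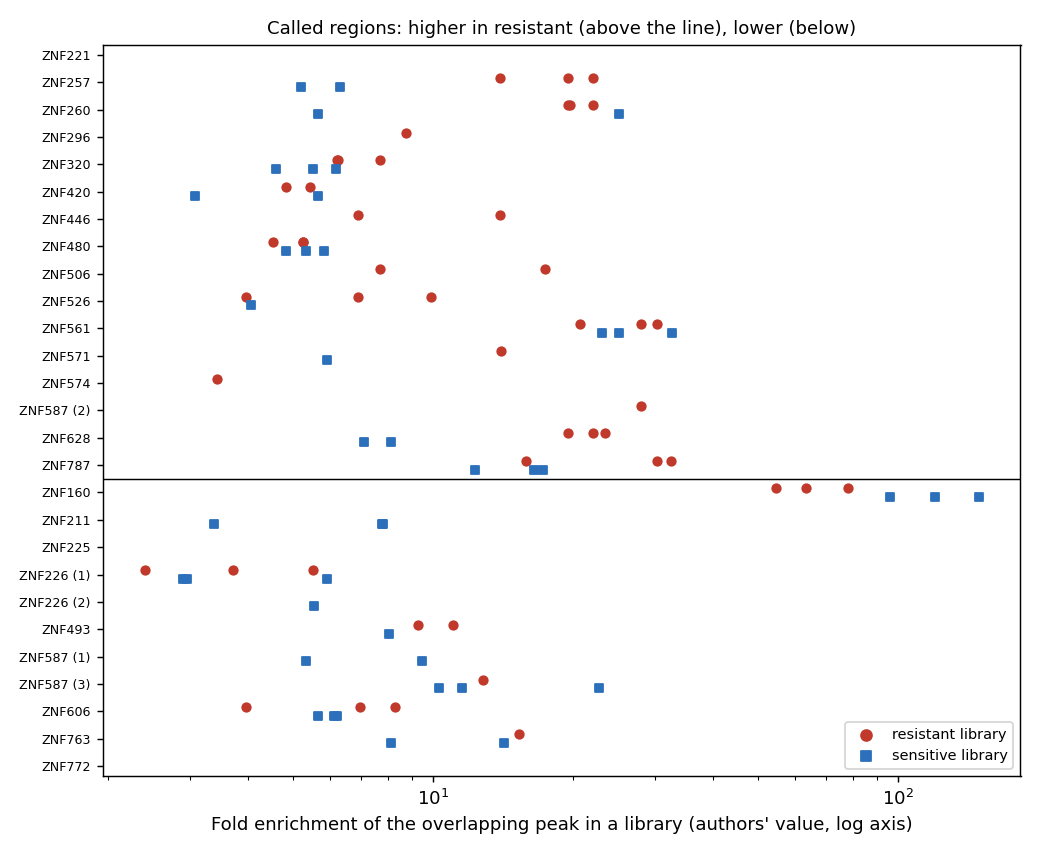
Fold enrichment, the authors' value on a log axis, of the peak that overlaps each called region in each IP library, with regions called higher in resistant cells above the line and those called lower below it; red circles are resistant and blue squares sensitive libraries, and a missing point means no overlapping peak. ZNF160 stands above all other called regions, at 54.5 to 78.1 in resistant and 95.9 to 149 in sensitive libraries.

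Large folds were not always called. ZNF83 and ZNF610 had the largest folds of all members in the authors' deposited table, 5.98 (deposited p = 0.108) and 5.24 (deposited p = 0.231), on a 5′ UTR and a 3′ UTR region without a peak in any library, and an uncalled region of ZNF772 stood at 3.34 (deposited p = 0.147). ZNF439, without a listed peak, had the lowest uncalled fold, 0.167 in the authors' deposited table (deposited p = 0.350). Close to the limits, with a p below 0.05, ZNF574 (1.46), ZNF428 (1.45) and ZNF8 (1.45) stood just under 1.5 in the authors' deposited table and ZNF787, ZNF574 and ZNF480 just above it. On the low side, ZNF226 (0.671), ZNF766 (0.724) and ZNF114 (0.752) stood just inside the uncalled range and ZNF226 (0.659), ZNF211 (0.595) and ZNF606 (0.575) beyond the limit in the authors' deposited table. ZNF428 had peaks of 9.12, 8.95 and 8.76 in resistant and 5.02, 4.85 and 6.69 in sensitive libraries, and ZNF114 had 6.89, 16.7 and 16.2 in resistant and 34.0, 38.4 and 32.4 in sensitive libraries, both without overlap. The ZNF91 region across coding sequence and 3′ UTR stood at 0.855 in the authors' deposited table (23541158 to 23542597; deposited p = 0.0417), which is not called.

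Most genes of a list of KRAB corepressors, taken broadly to include other gene silencing factors, carried m6A in both lines. Of these 16 genes, 13 had a peak in all 6 libraries, UHRF1 had none in any, and PPHLN1 had one in 2 resistant libraries and in no sensitive library. SETDB1 had a peak in all 6 libraries and was not compared. Calls fell on 4 of the 13 compared, 3 of them higher and 1 lower, beside 14.2% and 2.76% of all genes compared. TRIM28 stood at 1.70 in its 3′ UTR in the authors' deposited table (deposited p = 6.31e-12) and had a peak in 3 resistant libraries, against 1 sensitive library. It lies on chromosome 19, where 23.4% of the compared genes other than members were called higher. CBX5, which encodes HP1 alpha, stood at 1.51 in the 3′ UTR in the authors' deposited table (deposited p = 0.0158). MORC2, a chromatin-compacting ATPase that acts with the HUSH complex, stood at 1.52 in the authors' deposited table (deposited p = 0.00234). MORC2 was called in 2 of its 3 rows, with folds from 0.847 to 1.58 over the 3. ATF7IP, the partner that stabilises SETDB1, had 1 of 15 rows called lower, at 0.653 in the authors' deposited table (deposited p = 0.00851).

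Of 8 markers of luminal and ERBB2-amplified cells, all carried a peak and 6 did so in all 6 libraries; GATA3 had one in 2 resistant and 3 sensitive libraries and GRB7 in 3 resistant and no sensitive library. Of 7 markers of other cells, 5 (PTPRC, COL1A2, PECAM1, KRT5 and KRT14) had no peak in any library, VIM had one in 1 library of each line and COL1A1 in all 6. A peak shows that methylated RNA was detected, not how much RNA there was, and the part of RNA amount in the members' values was not tested. In such bulk libraries fewer cells with a transcript and less of it per cell cannot be told apart.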

How the data were processed

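m6A peaks were listed by the authors for each of 6 IP libraries, and a further table compares the lines; groups and replicate numbers come from the sample titles. Per the submitters' processing notes, HISAT2 was used. Which caller, genome build and test of the lines were applied is not given in the sources used here. Each peak's fold enrichment is a ratio with a p-value, and each compared region has a linear fold, resistant over sensitive, with a p-value, all as deposited by the authors; the headers name these columns and do not state whether p was adjusted. The authors' separate lists of changed regions were checked to hold exactly the rows with p under 0.05 whose fold reaches 1.5 or its inverse. The files count positions from 0; those printed count from 1.

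Members and lists were chosen with earlier results of these data known. Of 198 members, 196 were current RefSeq symbols and 2 older ones; the span of 5 of them lay inside their gene in GRCh38.p14, so that assembly was used for names only. Rows sharing at least 1 exonic base on a strand were merged within a library, and a region took the feature of most of its rows and the highest fold. Exact permutation tests, two-sided, were run in Python 3.11.15 and tested on simulated data. They treat libraries as replicates, so a p reflects the variation among these 6 libraries alone, possibly technical, and the paired tests reuse the same genes in each library.

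Named members were those called; those listed throughout 1 line but never in the other; the 5 largest and 5 smallest folds; the 8 highest median fold enrichments over 6 libraries; the 5 with most regions; 3 on either side of each limit; and, of the corepressors, the called ones with TRIM28 and SETDB1. Genes of the comparison without a listed peak, and cell markers, are named outside that rule. The comparison table holds no value per library, so a count model was not possible and the authors' fold and p are given. Same-numbered libraries were checked for pairing (see the last section).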

Additional observations from a re-analysis of the deposited data

How the results depend on the processing

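Widening the members to chromosome 19 genes starting ZFP, ZSCAN, ZKSCAN, ZIM or ZBTB kept the direction and side of the threshold of all 24 results recomputed. Both comparison sets changed with it: genes of these names on other chromosomes joined the ZNF genes elsewhere, and the added members left the other chromosome 19 genes. Merging rows only at an overlap of 0.5 of the shorter row made regions per gene against other chromosome 19 genes 0.13 (exact permutation test, p = 0.0625) and changed no call among the 18 others. The cause was not tested for any change given here.

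With peaks of p below 1e-05, the difference between lines in members with a peak turned to -2 genes, regions per gene against other chromosome 19 genes to -0.051, the 5′ UTR share against ZNF genes elsewhere to 0.44 points and exonic length against other chromosome 19 genes to 30.4 bases. The 3′ UTR share and regions per gene against ZNF genes elsewhere, at 5.86 points and -0.18, no longer passed. Resistant-only members numbered 0 and sensitive-only members 4. With folds of at least 5, the 3′ UTR share against other chromosome 19 genes turned to 5.38 points, the coding share against ZNF genes elsewhere to -1.75 points, median fold against other chromosome 19 genes to -0.54 and regions per gene against ZNF genes elsewhere to 0.0067. Median fold against ZNF genes elsewhere (0.29), regions per gene against other chromosome 19 genes (0.10) and the 5′ UTR share against ZNF genes elsewhere (-2.44 points) no longer passed, exonic length against ZNF genes elsewhere (-60.6 bases) now did, and sensitive-only members numbered 0. With equal numbers of top peaks, a cut that shortened the resistant lists most, members with a peak differed by -24.7 genes and resistant-only members numbered 0. With rows as listed, the 3′ UTR share against other chromosome 19 genes turned to 1.23 points and the 5′ UTR share against ZNF genes elsewhere, at -0.018 points, no longer passed. Peaks in 2 of 3 libraries of a line gave 4 resistant-only members.

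Members called higher numbered 8 with Benjamini-Hochberg adjustment, 4 with fold limits of 2 and 0.5 and 5 after division by the median; members called lower numbered 4 and 5 under the first 2. Division by the median turned the members' median log2 fold to -0.032.

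Leaving out 1 library at a time, differences between lines ranged from -0.33 to 8.17 for members with a peak (negative without sensitive replicate 2), from -0.19 to -0.06 points for their share and from -4.23 to -0.70 points for the 3′ UTR share. With 5 libraries the paired test cannot go below 0.0625, so none passes. Against other chromosome 19 genes the ranges were -4.16 to -2.48 points (3′ UTR), 16.01 to 18.1 (coding), -7.46 to -6.74 (stop codon), -6.67 to -6.14 (5′ UTR), -20.0 to -19.3 (several exons), -46.2 to -34.7 bases, 0.87 to 0.97 (median fold) and 0.11 to 0.18 (regions per gene). Against ZNF genes elsewhere they were 6.67 to 8.38 points (3′ UTR), -0.43 to 1.16 (coding), -7.23 to -6.17 (stop codon), -1.47 to -1.21 (5′ UTR), -4.41 to -4.00 (several exons), -35.8 to -23.9 bases, 0.51 to 0.59 (median fold) and -0.29 to -0.19 (regions per gene); the coding difference was negative without resistant replicate 1 (-0.43), 2 (-0.16) or 3 (-0.16).

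No sign that the replicate numbers mark pairs was found. Deviations of same-numbered libraries from their line's mean, over 4670 genes, had correlations of -0.06, -0.01 and -0.08. Libraries with different numbers had correlations from -0.03 to 0.09. Such low values cannot show whether same-numbered libraries were handled together. With the replicate number as a block, the differences between lines stayed at 4 genes (p = 0.75), -0.11 points (p = 0.5) and -2.70 points (p = 0.25) in the exact permutation test, whose smallest p with 3 pairs is 0.25.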
